A study of Mus musculus with 45 samples.

Results

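*Fn1*, *Thbs1*, *Fkbp10*, *Ly75* and *Ptprf* are 5 of the 28454 genes counted in mouse mammary tumour cell lines, and they were chosen by their mRNA level, being among the largest falls from MYAZ lines to Myc310, LM or LM-LM lines in control medium. Those falls are therefore described here without a test, and tests are kept for other contrasts. Of these, the differences between lines in deprived medium compare only libraries by which the genes were not chosen. Their filter, scaling and estimate of spread, however, come from a fit that also holds control-medium libraries of the same lines. A fit of the deprived libraries alone was run as an alternative. The other tests measure differences from control-medium libraries used in the choice, so their p-values are not independent of it. The choice had no stated limit in fold change, so there are no values just inside or outside one. All 5 were kept by the filter on low counts, and among the 13795 genes kept they ranked between 9 and 680 from the largest fall in Myc310, between 101 and 1433 in LM lines and between 138 and 4675 in LM-LM lines.

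All lines came from mammary tumours of MMTV-cMYC mice, in which the promoter of the mouse mammary tumour virus drives the cMYC transgene. MYAZ16.1e, MYAZ12.3i and MYAZ6.6g were isolated from such tumours and form the MYAZ subtype. Myc310 was isolated from a mammary tumour of a mouse of the same genotype that had multiple tumours, and this subtype is 1 line. LM1, LM2 and LM3 were isolated from lungs of mice that carried tumours grown from Myc310 cells in the mammary fat pad. LM1-LM was isolated from lungs after LM1 cells had been injected in the same way, and LM2-LM and LM3-LM are described as its biological replicates. A further line, labelled MYAZ12_3i_NDI1, carries a modification that the labels do not explain. Each line was grown in 3 cultures in control medium, and MYAZ16.1e, LM1, LM1-LM and Myc310 also in 3 cultures that spent 6 h in medium without cysteine and cystine, which gives 45 libraries. A change of medium before harvest is stated for those 4 lines only. The number of reads on genes ranged from 19517859 to 29019988 per library, with a median of 22899900. Within groups no library was a copy of another, since all 45 pairs of cultures of 1 group differed by more than sampling noise (chi-square per degree of freedom of 2.29 to 7.17).

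Fibronectin, encoded by *Fn1*, is a secreted glycoprotein that cells assemble into fibrils through integrins, and thrombospondin-1, encoded by *Thbs1*, is a matricellular protein that binds CD36 and CD47 and can activate latent TGF-β. The product of *Fkbp10* is a peptidyl-prolyl isomerase of the endoplasmic reticulum that helps procollagen to fold and to be cross-linked. *Ly75* encodes an endocytic receptor of the mannose receptor family, best known from dendritic cells, and *Ptprf* encodes LAR, a receptor-type tyrosine phosphatase found at cell contacts. Fibronectin is widely used as a mesenchymal marker in mammary tumour cells, in which matrix proteins can be made by the tumour cells as well as by fibroblasts.

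The genes lie at separate places in the GRCm38 build. *Fn1* (ENSMUSG00000026193) is on the minus strand at chr1:71585520-71653200, and *Thbs1* (ENSMUSG00000040152) on the plus strand at chr2:118111876-118127133. *Fkbp10* (ENSMUSG00000001555) is on the plus strand at chr11:100415697-100424824. *Ly75* (ENSMUSG00000026980) is on the minus strand at chr2:60292103-60383303, and *Ptprf* (ENSMUSG00000033295) on the minus strand at chr4:118208213-118291405. Counts are summed over all exons of a gene, so no exon, intron or UTR can be singled out.

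For 2 of the 5 genes the RefSeq promoter table (GRCm38.p6) held an entry, and the 250 bases before their RefSeq start are shown because both genes were among the falls in every subtype of the Myc310 lineage. These starts lie slightly inside the gene positions given above, so both windows overlap those positions at their last bases. Capitals mark the motif matches named after them. Both run 5′ to 3′ on the minus strand, at chr2:60383274-60383523 for *Ly75* and at chr4:118291398-118291647 for *Ptprf*.
Ly75: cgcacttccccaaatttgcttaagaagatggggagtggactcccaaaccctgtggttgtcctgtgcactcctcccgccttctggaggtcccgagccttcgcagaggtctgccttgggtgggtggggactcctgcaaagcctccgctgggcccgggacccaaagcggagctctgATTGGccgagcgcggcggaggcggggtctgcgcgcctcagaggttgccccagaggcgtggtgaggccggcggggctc
Ptprf: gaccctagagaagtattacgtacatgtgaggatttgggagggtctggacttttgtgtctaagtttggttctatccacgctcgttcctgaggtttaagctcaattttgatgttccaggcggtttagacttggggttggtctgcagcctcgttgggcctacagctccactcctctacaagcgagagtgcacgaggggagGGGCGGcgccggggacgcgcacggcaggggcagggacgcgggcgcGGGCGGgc
The *Ly75* window held 17 CpG dinucleotides at a GC content of 66.8%, and the *Ptprf* window 18 at 59.2%. The median over 32851 promoter windows of this length was 6 CpG, and 76.5% and 78.3% of them held fewer than *Ly75* and *Ptprf*. The windows were searched on both strands for the CCAAT box (CCAAT), the GC box (GGGCGG), the E-box that MYC can bind (CACGTG) and the AP-1 site (TGANTCA), none of which overlaps another in these matches. *Ly75* held 1 CCAAT box, on the opposite strand, as did 33.8% of all windows at least once. *Ptprf* held 2 GC boxes, and 32.7% of all windows held at least 1. Neither window held the E-box letters, found in 6.02% of windows, or the AP-1 letters, found in 6.75%.

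The name of genes lost in the Myc310 lineage describes 4 of the 5 genes in all lines and *Fkbp10* in part. For control medium this restates the values by which the genes were chosen. The share of all genes that lie below every MYAZ line in the whole lineage was not counted. *Fn1*, *Thbs1*, *Ly75* and *Ptprf* stood below every MYAZ line in each of the 7 lines of the lineage. *Fkbp10* was nearly absent from Myc310 but stood at or above the MYAZ level in LM3, LM1-LM and LM3-LM. The values below are CPM, the reads of a gene scaled by the total reads of its library, after TMM normalisation, which scales libraries to one another, and they compare lines for 1 gene, not genes with each other.

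**Figure D1:**
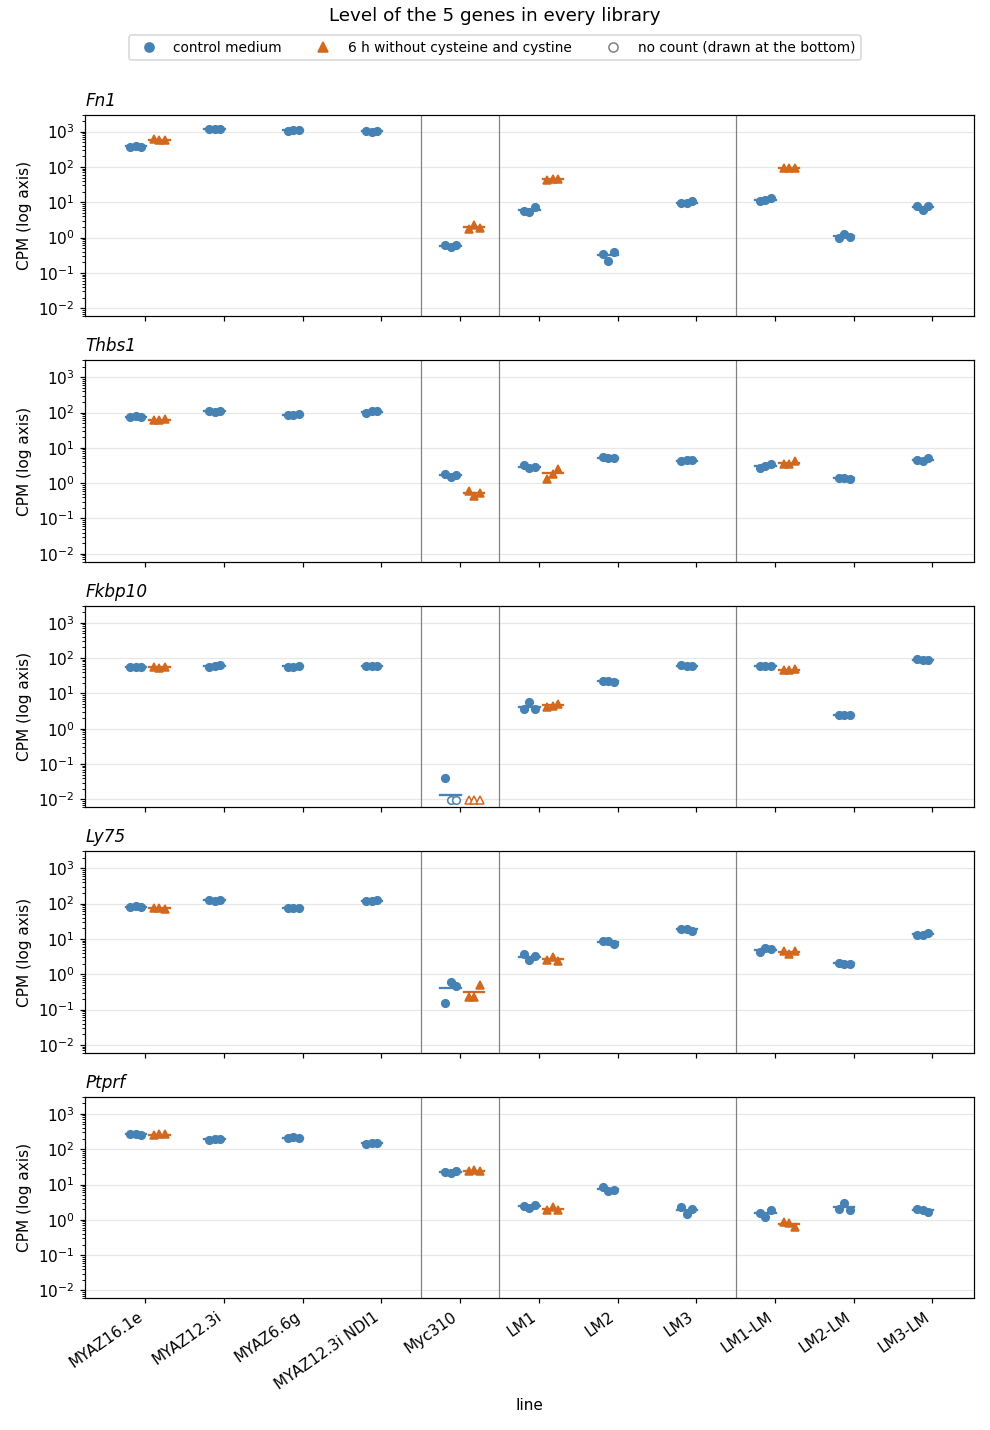
CPM of each gene on a log axis in all 45 libraries, by line. Points are single cultures in control medium, triangles are cultures without cysteine and cystine, short lines are means, and open symbols mark libraries with no count. *Fkbp10* in LM3, LM1-LM and LM3-LM reached the level of the MYAZ lines, whereas *Ptprf* was lower in all 6 lung-derived lines than in Myc310.

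*Fn1* was nearly absent from Myc310. Its CPM in control medium was 365, 403 and 376 in the cultures of MYAZ16.1e, 1190, 1220 and 1210 in MYAZ12.3i, and 1030, 1100 and 1110 in MYAZ6.6g. In Myc310 it was 0.631, 0.528 and 0.607, which rests on 16, 12 and 13 reads. The mean of Myc310 was 0.0661% of the mean over the MYAZ lines, which was 890 ± 445 CPM (SD over 3 lines). In bulk RNA such as this, fewer cells of a type and less RNA per cell cannot be told apart. LM1 held 5.67, 5.37 and 7.18 CPM, LM2 0.342, 0.215 and 0.391, and LM3 9.24, 9.28 and 10.6. LM1-LM held 10.9, 11.6 and 13.4 CPM, LM2-LM 0.966, 1.24 and 1.06, and LM3-LM 8.06, 5.88 and 7.74. *Fn1* was thus partly back in 4 lung-derived lines, with 10.3-fold (LM1), 16.5-fold (LM3), 20.4-fold (LM1-LM) and 12.3-fold (LM3-LM) the level of Myc310, and even there it reached at most 1.35% of the MYAZ mean. LM2, at 0.537 times the level of Myc310, lay below it without overlap, and LM2-LM stood 1.85-fold above it.

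*Thbs1* held a narrow range in the lineage. Its CPM was 76.1, 77.8 and 76 in MYAZ16.1e, 111, 105 and 109 in MYAZ12.3i, and 87.8, 86.2 and 89.1 in MYAZ6.6g, with 1.78, 1.5 and 1.73 in Myc310. The mean of the MYAZ lines was 90.8 ± 16 CPM (SD over 3 lines), of which Myc310 kept 1.84%. LM1 held 3.25, 2.66 and 2.96 CPM, LM2 5.39, 5.2 and 5, and LM3 4.22, 4.45 and 4.4. LM1-LM held 2.63, 3.12 and 3.5 CPM, LM2-LM 1.43, 1.41 and 1.35, and LM3-LM 4.52, 4.19 and 5.02. All cultures of 5 lung-derived lines were above those of Myc310, at 1.77-fold to 3.12-fold its mean, and those of LM2-LM were below all of them, at 0.838 times its mean. The lung-derived lines held between 1.54% and 5.72% of the MYAZ mean. Neighbours in this order such as LM2 and LM3-LM, LM3-LM and LM3, or LM1-LM and LM1 overlapped in their cultures.

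*Fkbp10* was the gene with the most even level in MYAZ lines and the widest range in the lineage. Its CPM was 55.7, 57.1 and 55.4 in MYAZ16.1e, 56, 59.3 and 62.3 in MYAZ12.3i, and 57.7, 57.2 and 58.7 in MYAZ6.6g. Myc310 had 1, 0 and 0 reads in control medium and none in any of the 3 cultures without cysteine and cystine. The ratio of MYAZ16.1e to Myc310 in control medium was 3890 with an exact counting interval from 698 to 154000, which covers counting error at a confidence level of 95% and not the spread between cultures. In LM1 it was 3.51, 5.56 and 3.57 CPM, in LM2 22.7, 22.1 and 21.3, and in LM3 62.8, 61 and 58.5. LM1-LM held 59.5, 58.3 and 58.9 CPM, LM2-LM 2.43, 2.44 and 2.46, and LM3-LM 93.6, 86.1 and 88.7. Relative to the MYAZ mean of 57.7 ± 1.58 CPM (SD over 3 lines), LM1 stood at 7.29%, LM2 at 38.2% and LM3 at 105%, and LM1-LM stood at 102%, LM2-LM at 4.23% and LM3-LM at 155%. Every culture of the 6 lung-derived lines was above every culture of Myc310. The cultures of LM3 and LM1-LM overlapped with those of MYAZ12.3i, and LM3-LM was above all other lines.

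**Figure D2:**
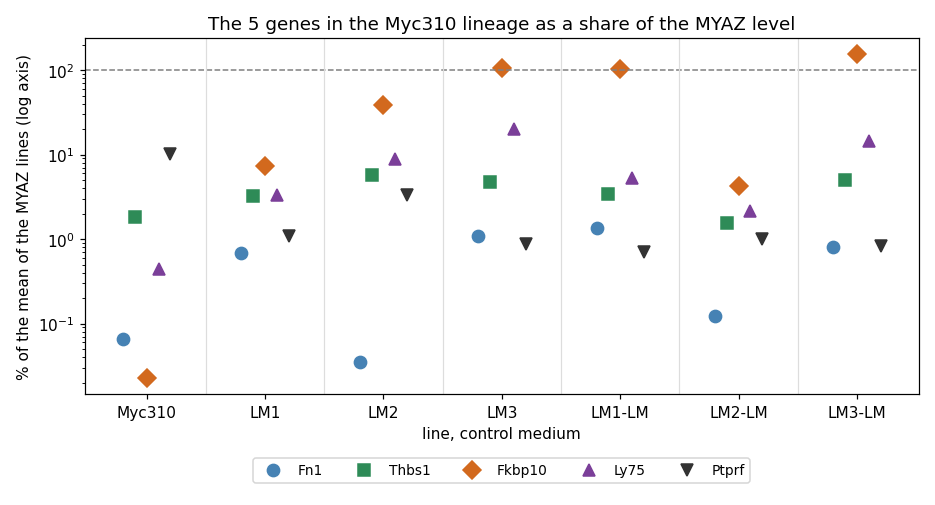
Mean CPM of 3 cultures of each line of the Myc310 lineage in control medium, as a percentage of the mean over the MYAZ lines (dashed line, 100%), on a log axis. *Fkbp10* ranged from 0.0228% in Myc310 to 155% in LM3-LM, and *Ptprf* was highest in Myc310 with 10.3%.

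*Ly75* came back in part in all lung-derived lines. Its CPM was 78.4, 88 and 80.4 in MYAZ16.1e, 126, 121 and 124 in MYAZ12.3i, and 74.4, 73.8 and 76.7 in MYAZ6.6g. Myc310 held 0.158, 0.616 and 0.467, from 4, 14 and 10 reads, or 0.442% of the MYAZ mean of 93.6 ± 26.2 CPM (SD over 3 lines). LM1 held 3.66, 2.53 and 3.19 CPM, LM2 8.77, 8.86 and 7.35, and LM3 19.6, 19.1 and 17.3. LM1-LM held 4.18, 5.61 and 5.04 CPM, LM2-LM 2.13, 2.01 and 1.97, and LM3-LM 13, 13.1 and 14.6. All 6 lung-derived lines lay above Myc310 without overlap, from 4.92-fold in LM2-LM to 45.1-fold in LM3. The highest of them, LM3, had 19.9% of the MYAZ mean.

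*Ptprf* ran the other way. Its CPM was 268, 272 and 251 in MYAZ16.1e, 187, 188 and 190 in MYAZ12.3i, and 206, 215 and 214 in MYAZ6.6g, and Myc310 kept 22.5, 21.4 and 24.3, or 10.3% of the MYAZ mean of 221 ± 38.6 CPM (SD over 3 lines). LM1 held 2.47, 2.17 and 2.67 CPM, LM2 8.34, 6.58 and 7.22, and LM3 2.32, 1.51 and 1.98. LM1-LM held 1.55, 1.2 and 1.96 CPM, LM2-LM 1.97, 2.91 and 1.84, and LM3-LM 2.02, 1.87 and 1.63. The lung-derived lines were thus 3.08-fold (LM2) to 14.5-fold (LM1-LM) below Myc310, with no overlap. LM2 stood above the other 5, whose cultures overlapped from each line to the next in order.

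Lines of 1 subtype also differed among themselves in control medium. These ranges come from the line values that were in view when the genes were chosen, so they are given without a test of the 5 genes. Within MYAZ, 74.0% of all genes tested were called different between lines by edgeR. The highest and lowest line differed by 1.67 on the log2 scale for *Fn1*, by 0.50 for *Thbs1*, by 0.73 for *Ly75*, by 0.48 for *Ptprf* and by 0.09 for *Fkbp10*. Within LM 61.9% of all genes were called. The log2 ranges there were 4.91 for *Fn1*, 3.88 for *Fkbp10*, 2.62 for *Ly75*, 1.94 for *Ptprf* and 0.86 for *Thbs1*. Within LM-LM 68.2% of all genes were called. Here *Fkbp10* had the widest range of the 5 with 5.21, followed by 3.46 for *Fn1*, 2.76 for *Ly75*, 1.73 for *Thbs1* and 0.51 for *Ptprf*. Throughout, the replicates are cultures of a line, so p-values measure only the spread between cultures, which the study calls technical replicates.

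The cultures without cysteine and cystine were not used to choose the genes, and they give the levels of the same lines again. *Fn1* held 604, 569 and 571 CPM in MYAZ16.1e, 1.76, 2.29 and 1.85 in Myc310, 42.4, 46.4 and 46.2 in LM1, and 93.1, 92.4 and 92.8 in LM1-LM. *Thbs1* held 62.6, 61.6 and 63.8 CPM in MYAZ16.1e, 0.588, 0.42 and 0.527 in Myc310, 1.3, 1.83 and 2.53 in LM1, and 3.59, 3.38 and 4.28 in LM1-LM. For both genes the 4 lines stood in the order MYAZ16.1e, LM1-LM, LM1 and Myc310 with no overlap. *Fkbp10* held 54.2, 53.4 and 56.3 CPM in MYAZ16.1e, no read in Myc310, 4.23, 4.48 and 5.01 in LM1, and 46.8, 46.6 and 47.7 in LM1-LM. *Ly75* held 76.7, 75.6 and 70.5 CPM in MYAZ16.1e, 0.226, 0.233 and 0.483 in Myc310, 2.51, 3.01 and 2.44 in LM1, and 4.43, 3.83 and 4.51 in LM1-LM. *Ptprf* held 253, 263 and 264 CPM in MYAZ16.1e, 24.1, 25.3 and 24.7 in Myc310, 1.95, 2.33 and 1.93 in LM1, and 0.879, 0.807 and 0.611 in LM1-LM. *Fkbp10* and *Ly75* kept the order of *Fn1*, and *Ptprf* had Myc310 above both lung-derived lines, also without overlap.

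These levels differed in edgeR's quasi-likelihood test over 13400 genes. Myc310 was below MYAZ16.1e for all 5 genes, beside 72.3% of all genes called in either direction. The log2 difference was -8.20 ± 0.07 (SE) for *Fn1* (adjusted p = 9.39e-36), -6.91 ± 0.13 for *Thbs1* (adjusted p = 8.50e-28), -7.84 ± 0.16 for *Ly75* (adjusted p = 4.58e-27) and -3.39 ± 0.05 for *Ptprf* (adjusted p = 5.91e-31). Here and below, SE is the size of the log2 difference divided by the square root of the test's F statistic. For large differences that rest on few reads it can be smaller than counting error alone. Deprived Myc310 cultures, for example, held 39, 49 and 42 reads of *Fn1*, so the SE overstates the precision of such differences. *Fkbp10* was at least 1210-fold lower in Myc310, taking a floor of 3 reads over the group for its count of 0 (adjusted p = 8.04e-27). LM1 differed from Myc310 for all 5 genes, beside 51.9% of all genes, and 4 of them were higher. The log2 difference was 4.54 ± 0.10 for *Fn1* (adjusted p = 2.70e-25), 1.89 ± 0.24 for *Thbs1* (adjusted p = 9.90e-08) and 3.07 ± 0.29 for *Ly75* (adjusted p = 2.92e-10), and *Fkbp10* was at least 101-fold higher (adjusted p = 6.22e-16). *Ptprf* was lower in LM1 by a log2 difference of -3.55 ± 0.10 (adjusted p = 3.62e-23).

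Between LM1 and LM1-LM, which was derived from it, all 5 genes differed in the deprived cultures, beside 16.9% of all genes. *Fkbp10* differed most of the 5 and was higher in LM1-LM by 3.36 ± 0.08 (SE) on the log2 scale (adjusted p = 2.32e-21, edgeR), or 10.3-fold. *Fn1* was higher by 1.04 ± 0.05 (adjusted p = 6.05e-16), *Thbs1* by 0.99 ± 0.15 (adjusted p = 1.94e-05) and *Ly75* by 0.69 ± 0.16 (adjusted p = 0.00263), while the difference of *Ptprf* was -1.41 ± 0.20 (adjusted p = 6.53e-06). The call for *Ly75* was lost without the cultures numbered 3 (adjusted p = 0.0679). Between LM1-LM and Myc310 all 5 genes differed, beside 59.2% of all genes, with log2 differences of 5.59 ± 0.09 for *Fn1* (adjusted p = 3.56e-29), 2.88 ± 0.21 for *Thbs1* (adjusted p = 3.62e-13), 3.76 ± 0.26 for *Ly75* (adjusted p = 1.56e-13) and -4.96 ± 0.12 for *Ptprf* (adjusted p = 6.36e-25), and with *Fkbp10* at least 1040-fold higher in LM1-LM (adjusted p = 5.43e-26). These comparisons share groups, and each subtype is represented by 1 line, so line and subtype cannot be told apart.

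The response of each line to the loss of cysteine and cystine was the next comparison. It is measured from the control cultures, whose low values in the lineage entered the choice of the genes, so a response there and its difference from MYAZ16.1e are not independent of that choice. *Fn1* was higher in deprived than in control cultures in all 4 lines, with larger log2 fold changes in the lines of the Myc310 lineage. Its log2 fold change was 0.60 ± 0.04 (SE) in MYAZ16.1e (adjusted p = 1.62e-14, edgeR), 1.71 ± 0.26 in Myc310 (adjusted p = 9.77e-07), 2.92 ± 0.08 in LM1 (adjusted p = 3.85e-24). LM1-LM had a log2 fold change of 2.99 ± 0.06 (adjusted p = 2.55e-27). These correspond to 1.52-fold, 3.27-fold, 7.59-fold and 7.97-fold. Interaction contrasts tested whether the response exceeded that of MYAZ16.1e. It did so by 1.11 ± 0.27 in Myc310 (adjusted p = 0.00125), and LM1 exceeded it by 2.32 ± 0.09 (adjusted p = 6.89e-19) and LM1-LM by 2.39 ± 0.07 (adjusted p = 2.17e-21). Even so, deprived LM1-LM cultures held 10.4% of the mean of the MYAZ lines in control medium, and deprived Myc310 cultures 0.221%.

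*Thbs1* fell in MYAZ16.1e, Myc310 and LM1. The log2 fold change was -0.30 ± 0.06 (SE) in MYAZ16.1e (adjusted p = 2.13e-04, edgeR), -1.71 ± 0.25 in Myc310 (adjusted p = 3.94e-07) and -0.60 ± 0.16 in LM1 (adjusted p = 0.00162). In LM1-LM it was 0.32 ± 0.14 (adjusted p = 0.035), but this call was lost with upper-quartile scaling (0.112), with no filter on low counts (0.0559), with DESeq2 (0.0573) and without the cultures of any 1 number (0.0659 to 0.16). The control and deprived cultures of LM1-LM overlapped, with 2.63 to 3.5 and 3.38 to 4.28 CPM. The call in LM1 was lost without the cultures numbered 1 (adjusted p = 0.133). Compared with MYAZ16.1e, the response differed by -1.41 ± 0.26 in Myc310 (adjusted p = 4.61e-05) and by 0.62 ± 0.15 in LM1-LM (adjusted p = 8.28e-04), whereas the -0.31 ± 0.18 of LM1 did not pass (adjusted p = 0.147) except without the cultures numbered 3 (0.0309).

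**Figure D3:**
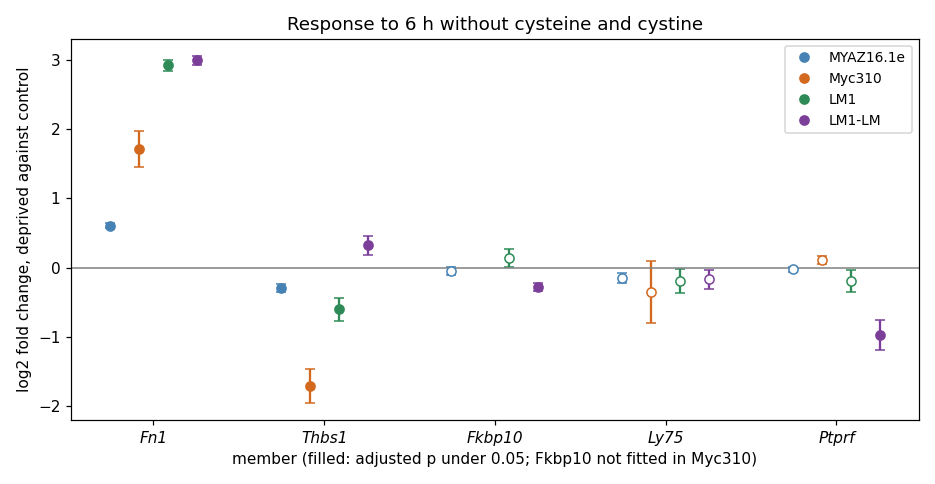
Log2 fold change of deprived against control cultures for each gene and line, with the SE derived from edgeR's F statistic as bars and filled points for an adjusted p-value under 0.05. *Fn1* rose in all 4 lines, from 0.60 in MYAZ16.1e to 2.99 in LM1-LM, while *Thbs1* went from -1.71 in Myc310 to 0.32 in LM1-LM.

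Of *Fkbp10*, *Ly75* and *Ptprf*, the first and the last passed the threshold in LM1-LM and none did in the other lines with all cultures. *Fkbp10* changed by -0.29 ± 0.06 (SE) in LM1-LM (adjusted p = 9.08e-05, edgeR), and its -0.04 ± 0.06 in MYAZ16.1e (adjusted p = 0.583) and 0.14 ± 0.13 in LM1 (adjusted p = 0.33) did not pass. Without the cultures numbered 2, the response in LM1 was 0.41 and passed (adjusted p = 0.0144), as did its difference from MYAZ16.1e (adjusted p = 0.0227). In Myc310 it was at or under the floor of 3 reads in both media, so no fold change is given. The response in LM1-LM differed from that in MYAZ16.1e by -0.24 ± 0.08 (adjusted p = 0.0142), which was lost without the cultures numbered 1 (0.0637) or 3 (0.0921). *Ly75* changed by -0.15 ± 0.07 in MYAZ16.1e (adjusted p = 0.0678), -0.36 ± 0.45 in Myc310 (adjusted p = 0.499), -0.19 ± 0.18 in LM1 (adjusted p = 0.341). For LM1-LM its change was -0.17 ± 0.14 (adjusted p = 0.281). Of these the value in MYAZ16.1e passed with no filter on low counts (0.0201), DESeq2 (0.028), all 45 libraries (0.0117) and without the cultures numbered 1 (0.0189), and that in LM1 without the cultures numbered 2 (0.0489).

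*Ptprf* changed by -0.97 ± 0.22 (SE) in LM1-LM (adjusted p = 2.12e-04, edgeR), from a mean of 1.57 to 0.766 CPM. In MYAZ16.1e (-0.02 ± 0.04, adjusted p = 0.642), Myc310 (0.11 ± 0.06, adjusted p = 0.10) and LM1 (-0.20 ± 0.16, adjusted p = 0.299) it did not pass. Without the cultures numbered 3, the response in Myc310 was 0.15 and passed (adjusted p = 0.0354), as did its difference from MYAZ16.1e, of 0.23 (adjusted p = 0.019). The response in LM1-LM differed from that in MYAZ16.1e by -0.94 ± 0.22 (adjusted p = 5.28e-04), and this was lost without the cultures numbered 3 (0.0828). In all, 2 of 5 genes were called in MYAZ16.1e beside 53.7% of all genes, 2 of 4 in Myc310 beside 66.8%, 2 of 5 in LM1 beside 71.1% and 4 of 5 in LM1-LM beside 72.4%. For the differences from MYAZ16.1e, 2 of 4 genes were called in Myc310 beside 40.3% of all genes, 1 of 5 in LM1 beside 52.2% and 4 of 5 in LM1-LM beside 54.8%.

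The line labelled MYAZ12_3i_NDI1 was compared with MYAZ12.3i, and 2 of the 5 genes differed, beside 17.4% of the 12841 genes tested. *Ptprf* was lower by a log2 difference of -0.36 ± 0.03 (SE; adjusted p = 2.97e-06, edgeR), with 143, 149 and 149 CPM in the NDI1 cultures, all below those of MYAZ12.3i. *Fn1* was lower by -0.26 ± 0.03 (adjusted p = 4.98e-05), with 1050, 975 and 1020 CPM. *Thbs1* (-0.06 ± 0.04, adjusted p = 0.344), *Ly75* (-0.04 ± 0.03, adjusted p = 0.458) and *Fkbp10* (0.01 ± 0.04, adjusted p = 0.885) did not pass.

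Other matrix glycoproteins were counted in the same way. Of 20 listed genes 15 passed the filter, and against MYAZ in control medium 11 were lower and 2 higher in Myc310, 12 and 3 in LM, and 12 and 2 in LM-LM, by edgeR's test at an adjusted p-value under 0.05. Among all genes 27.1% were lower and 23.8% higher in Myc310, 30.5% lower and 30.3% higher in LM, and 32.3% lower and 30.5% higher in LM-LM. The median log2 difference of the list was -1.74, -1.56 and -1.67, with no change when the genes at the floor were set to their bound, against -0.02, 0.00 and -0.01 over all genes tested. Of the 15 genes, *Fbln2*, *Lox* and *Tnc* were kept by the filter through MYAZ libraries alone, so they could be called only lower. Of the other 12, counted apart after the values were seen, 8 were lower and 2 higher in Myc310, 9 and 3 in LM, and 9 and 2 in LM-LM, with medians of -1.0, -1.19 and -1.42. *Lox*, a collagen and elastin cross-linking oxidase, had line means of 1.09 to 9.85 CPM in MYAZ, no read in Myc310 and LM, and 3 reads in all LM-LM libraries together. *Fbln2*, a basement membrane fibulin, held 130 to 141 CPM in MYAZ lines, 0.233 in Myc310, 0.203 to 0.362 in LM and 0.162 to 0.189 in LM-LM. *Spp1*, which encodes osteopontin, was higher in all 3 subtypes, by log2 differences of 1.13, 1.55 and 0.92 respectively, with line means of 116 to 221 CPM in MYAZ, 404 in Myc310, 332 to 664 in LM and 113 to 690 in LM-LM, so that the lowest LM-LM line lay below the MYAZ lines.

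These counts treat cultures as replicates. With counts summed per line, 4 of the 15 matrix genes were lower and 0 higher in Myc310, 8 and 1 in LM, and 9 and 1 in LM-LM, beside 8.92%, 23.6% and 26.4% of all genes called in either direction. The list was drawn up with earlier results of these data known, so its direction is no independent evidence. The median log2 response of the list to loss of cysteine and cystine came to 0.27 (MYAZ16.1e), 0.93 (Myc310), 0.00 (LM1) and 0.03 (LM1-LM). Of its genes *Ccn1*, *Ccn2* and *Fbln2* are named after their values were seen. *Ccn1* and *Ccn2*, which encode matricellular proteins, had log2 responses of 0.37 and 0.48 in MYAZ16.1e, 1.75 and 1.89 in Myc310, 2.20 and 2.68 in LM1, and 2.26 and 2.84 in LM1-LM, and *Fbln2* of 0.27, 3.31, 2.36 and 2.62, all past the threshold in edgeR. Of the 15 genes, 8 rose and 3 fell in MYAZ16.1e, 6 and 3 in Myc310, 6 and 5 in LM1, and 6 and 5 in LM1-LM, beside 53.7%, 66.8%, 71.1% and 72.4% of all genes called in either direction.

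Receptors of both matrix proteins were called about as often as all genes. Of 10 tested genes of 12 listed, 4 were lower and 1 higher in Myc310, 2 and 3 in LM, and 3 and 3 in LM-LM, beside the shares of all genes given for the matrix list (27.1% and 23.8%, 30.5% and 30.3%, 32.3% and 30.5%). The largest fall past the threshold in all 3 was that of the integrin subunit *Itgav*, with -0.62 (Myc310), -0.57 (LM) and -0.56 (LM-LM) on the log2 scale, and the only rise in all 3 was that of *Itga3*, with 0.25, 0.18 and 0.19. *Itgb1*, the shared subunit of fibronectin receptors, did not pass in any, with line means of 702 to 869 CPM in MYAZ and 676 to 814 in the lineage. The list's median difference was -0.15, -0.00 and -0.06. On loss of cysteine and cystine, 7 of the 10 rose and 0 fell in MYAZ16.1e, 6 and 0 in Myc310, 8 and 2 in LM1, and 8 and 1 in LM1-LM, where 53.7%, 66.8%, 71.1% and 72.4% of all genes were called in either direction. With counts summed per line, 0 of the 10 passed in Myc310 (edgeR), 2 in LM and 3 in LM-LM, all of them lower, beside 8.92%, 23.6% and 26.4% of all genes.

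Genes of procollagen folding and modification, the process in which the product of *Fkbp10* takes part, were mixed. Of 18 tested genes of 19 listed, 8 were lower and 3 higher in Myc310, 9 and 6 in LM, and 9 and 7 in LM-LM, with a median log2 difference of -0.18, -0.20 and -0.17. The shares over all genes were 27.1% lower and 23.8% higher in Myc310, 30.5% and 30.3% in LM, and 32.3% and 30.5% in LM-LM. The prolyl hydroxylase *P3h2* had line means of 8.01 to 21.3 CPM in MYAZ, 0.35 in Myc310, at most 0.473 in LM and 2 reads in all LM-LM libraries together. With at most 16 reads in any library of the lineage it was kept by the filter mainly through MYAZ and had little room to be called anything but lower. *P3h3*, a relative of it, was higher by 1.44, 1.09 and 1.92 on the log2 scale. The lysyl hydroxylase *Plod2*, which acts with the *Fkbp10* product on collagen telopeptides, was also higher, by 0.95, 1.39 and 1.57. With counts summed per line, 2 were lower and 0 higher in Myc310, 3 and 4 in LM, and 3 and 6 in LM-LM, beside 8.92%, 23.6% and 26.4% of all genes called.

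Of the relatives and partners of LAR, 6 of 10 listed genes were tested, and 3 were lower and 2 higher in Myc310, 2 and 2 in LM, and 3 and 2 in LM-LM, beside 27.1% and 23.8%, 30.5% and 30.3%, and 32.3% and 30.5% of all genes. *Ptprs*, a relative of LAR, was higher by 0.68, 0.74 and 0.60 on the log2 scale, from line means of 171 to 192 CPM in MYAZ to 293 in Myc310, 283 to 320 in LM and 244 to 334 in LM-LM. *Ppfia3*, a liprin, was lower, with 2.57 to 4.25 CPM in MYAZ lines, 0.214 in Myc310, at most 0.445 in LM and at most 0.251 in LM-LM. It too had at most 16 reads in any library of the lineage, which left little room for another call. Counts summed per line gave 1 lower and 1 higher in Myc310 and 1 lower and 2 higher in both LM and LM-LM, beside 8.92%, 23.6% and 26.4% of all genes called. Of the mannose receptor family only *Mrc2*, a collagen receptor, was tested, and it was lower by -3.81, -3.68 and -3.93, with line means of 3.98 to 47.9 CPM in MYAZ and 0.658 to 3.18 in the lineage. With counts summed per line it passed in LM and LM-LM and not in Myc310.

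The genes next to the 5 on the chromosome were examined, taking the 3 nearest protein-coding genes on each side. Of these 30 neighbours 24 were tested, and 15 were lower and 3 higher than MYAZ in Myc310, 15 and 6 in LM, and 15 and 6 in LM-LM, or 4 and 3, 14 and 2, and 14 and 2 of 27 with counts summed per line. Over all genes, 27.1% were lower and 23.8% higher in Myc310, 30.5% and 30.3% in LM, and 32.3% and 30.5% in LM-LM, and with counts summed per line 8.92%, 23.6% and 26.4% were called in either direction. A few of them were close to absent from the lineage. *Fsip1*, *Cd302*, *Artn* and *Gpr176* passed the filter on low counts through MYAZ libraries and so could be called only lower, and the counts of lower neighbours include them. Of the other 20 tested neighbours, 11 were lower and 3 higher in Myc310, and 11 and 6 in both LM and LM-LM. *P3h4*, which encodes a partner of the prolyl hydroxylases, lies 861 bases from *Fkbp10* on the other strand. Its levels were 16.9 to 22.7 CPM in MYAZ lines, 0.143 in Myc310, 0.7 in LM1, 6.55 in LM2 and 16.4 in LM3. In LM1-LM, where *Fkbp10* was back at the level of MYAZ lines, it held 6.05 CPM, in LM2-LM 0.477 and in LM3-LM 26. In the deprived cultures it was lower in Myc310 than in MYAZ16.1e, by a log2 difference of -7.53, and higher in LM1-LM than in LM1 by 3.68 on the log2 scale, both past the threshold in edgeR. Between LM1 and Myc310 its difference of 1.11 ± 0.61 (SE) did not pass (adjusted p = 0.132). *Jup*, the next gene on that side, went the other way, with 26.2 to 61.2 CPM in MYAZ lines and 178 in Myc310.

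**Figure D4:**
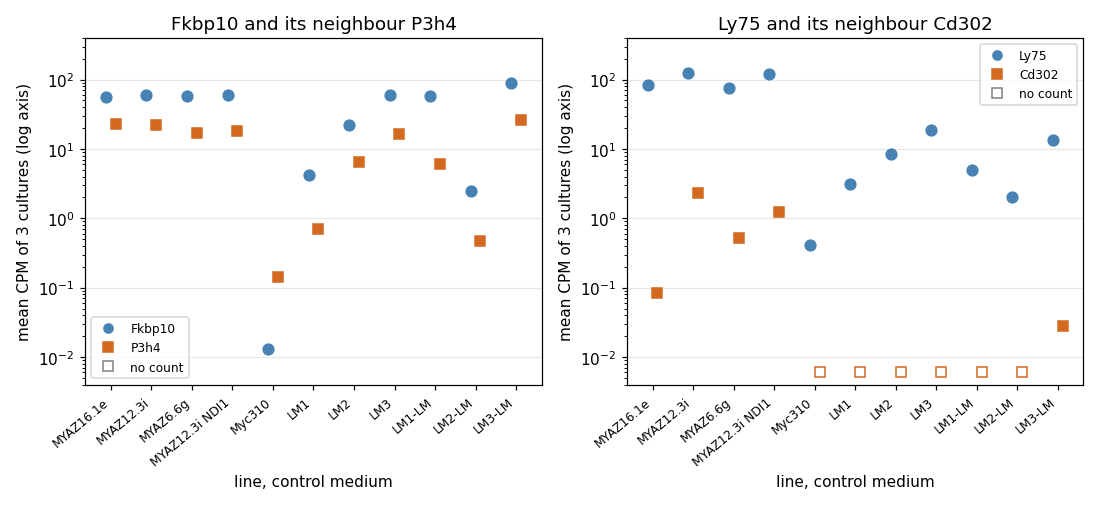
Mean CPM of 3 cultures in control medium, on a log axis, of *Fkbp10* and *P3h4* (left) and of *Ly75* and *Cd302* (right) in 11 lines. *P3h4* was lowest in Myc310 and highest of the lineage in LM3-LM, as *Fkbp10* was, but stayed under the MYAZ lines in LM1-LM, with 6.05 CPM. *Cd302*, which was low in MYAZ16.1e too with 0.0841 CPM, had no read in 6 of the 7 lines of the lineage.

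*Cd302*, a C-type lectin receptor 7615 bases from *Ly75*, held 0.0841 CPM in MYAZ16.1e, 0.519 in MYAZ6.6g and 2.31 in MYAZ12.3i and had no read in any line of the lineage but LM3-LM, where 1 read was found in each of 2 libraries. Next to *Thbs1*, at 3291 bases, *Fsip1* held 0.325 to 0.49 CPM in MYAZ lines and no read in the lineage. *Gpr176*, an orphan receptor gene 149977 bases from *Thbs1*, held 0.705 CPM in MYAZ16.1e, 8.48 in MYAZ6.6g and 10.7 in MYAZ12.3i and at most 0.0813 in the lineage. *Artn*, a neurotrophic ligand 278450 bases from *Ptprf*, held 0.0604 to 0.671 CPM in MYAZ lines and at most 0.0276 in the lineage. In contrast *Atic*, an enzyme of purine synthesis 5889 bases from *Fn1*, kept 377 to 395 CPM in MYAZ and 388 to 479 in the lineage, and its log2 difference from MYAZ was 0.08 in Myc310, which did not pass, and 0.15 in LM and 0.20 in LM-LM, which did. What the neighbours share with the 5 genes beyond position was not tested.

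Genes whose level followed each member were ranked by Pearson's r of mean log2 CPM over 11 lines in control medium, as a description in which 7 lines share an origin. *Fn1* was closest to *Gstm4* (r = 0.984), *Mucl3* and *Ccn4* (both 0.980), and *Thbs1* to *Ccdc102a* (0.990), *Ykt6* and *Ube2l6* (both 0.989). *Fkbp10* was closest to *Npc1* (0.961), *P3h4* (0.943) and *C1qtnf6* (0.901), although *Npc1* ranged only from 39.9 CPM in Myc310 to 54.9. *Ly75* was closest to *Fbln1* (0.981), *Arhgef10* (0.980) and *Bcl3* (0.977), and *Ptprf* to *Tnfrsf19* (0.990), *Sox11* (0.987) and *Cers6* (0.986). Among the 5 genes r was 0.93 between *Fn1* and *Thbs1*, 0.82 between *Fkbp10* and *Ly75* and 0.17 between *Fkbp10* and *Ptprf*.

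Markers of the cell types that such cultures could hold were summed per library. The keratins *Krt8* (219 to 1700 CPM over line means) and *Krt18* (99 to 546 CPM) marked all lines as epithelial in part, but in control medium *Epcam* stayed at or under 0.673 CPM and *Cdh1* at or under 0.142, so defining epithelial adhesion genes were nearly absent from MYAZ lines as well. Of 10 epithelial markers 4 reached a line mean of 1 CPM in each subtype. The 10 summed to 339 to 1180 CPM in MYAZ libraries, 1380 to 1400 in Myc310, 1100 to 2140 in LM and 1020 to 2460 in LM-LM. Over 9 fibroblast markers, of which between 1 (Myc310) and 4 (MYAZ) reached 1 CPM, the summed level was 7.46 to 98.1 CPM in MYAZ libraries, 1.73 to 2.16 in Myc310, 15.1 to 125 in LM and 34.1 to 217 in LM-LM. *Dcn*, *Lum* and *Thy1* were at or near 0 in all lines, and *Fap* had no read. In the lung-derived lines the sum was mostly *Col3a1*, the chain of type III collagen, with 0.469 CPM in Myc310, 12.9 in LM1, 40.4 in LM2, 109 in LM3, 56.5 in LM1-LM, 31 in LM2-LM and 199 in LM3-LM. Within the lineage LM3-LM and LM3 were the highest and Myc310 the lowest for both *Col3a1* and *Fkbp10*, a likeness noticed after the values were seen. It did not extend to MYAZ lines, in which *Col3a1* held 0 CPM (MYAZ16.1e), 1.63 (MYAZ6.6g) and 10.1 (MYAZ12.3i). Of 5 tested against MYAZ, 4 were lower and 0 higher in Myc310, 3 and 1 in LM, and 4 and 1 in LM-LM, the higher one being *Col3a1*, beside 27.1% and 23.8%, 30.5% and 30.3%, and 32.3% and 30.5% of all genes. The median log2 difference of the 5 was -3.66, -2.61 and -2.73. *Col1a2* was kept by the filter through MYAZ libraries alone and could be called only lower, and without it 3 of 4 were lower and 0 higher in Myc310, 2 and 1 in LM, and 3 and 1 in LM-LM. *Col1a1* had at most 18 reads in any control library of the lineage. *Pdgfrb* held 0.534 to 33.4 CPM in MYAZ lines and at most 1.13 in LM and LM-LM. The part of other cells in the results was not tested.

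The 8 leukocyte markers in the table summed to 4.12 to 6.31 CPM in MYAZ libraries, 9.51 to 10.3 in Myc310 and 9.38 to 19.8 in LM and LM-LM, most of it *Cd68*, and *Ptprc*, which marks all leukocytes, stayed at or under 0.0412 in control medium. Endothelial markers summed to at most 6.56 CPM, mainly *Kdr* in MYAZ lines, and alveolar markers to at most 1.97. *Myc* held 409 to 602 CPM in MYAZ libraries, 1320 to 1360 in Myc310, 800 to 1180 in LM and 680 to 1190 in LM-LM.

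Other annotated genes overlap the 5, and whether the counting used the strand is not given in the sources used here. *Nt5c3b*, a protein-coding gene on the strand opposite *Fkbp10*, held 43.4 ± 1.02 CPM (SD, n = 3) in Myc310 in control medium, where *Fkbp10* had 1 read in 3 libraries. The antisense genes *Apol7d*, in *Fn1*, and *Gm13571*, in *Ly75*, had at most 12 and 1 reads in any library.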

How the data were processed

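RNA was measured by paired-end sequencing of poly(A) libraries (NEBNext Ultra II Directional PolyA). Cells were plated at 250000 per well. A change of medium after 24 h, for 6 h, is stated only for the 4 lines that were also deprived. The authors deposited raw counts per gene, and the submitters' processing notes name STAR, RSEM, GRCm38, R 4.2.2 and DESeq2 1.38.3. From these counts, CPM values with TMM factors and edgeR's quasi-likelihood tests (edgeR 4.0.16, limma 3.58.1, R 4.3.3, filterByExpr, Benjamini-Hochberg, threshold 0.05) were computed over all genes, with DESeq2 1.42.0 as an alternative. CPM was averaged over 3 cultures. A group with no read was given a floor of 3 counts. The tests of the response in LM1, of LM1 against Myc310 in deprived medium, of lines within MYAZ and of NDI1 were tried on simulated counts. The totals per library limit the precision of low counts, and intervals cover counting error only.

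The 5 genes and the gene lists were chosen with earlier results of these data known. Besides the 5, the text names the 3 genes most alike to each, some of the 3 nearest protein-coding genes on each side, list members with the largest fall and rise in all subtypes, and others chosen after their values were seen (*Fbln2*, *Ccn1*, *Ccn2*, *Itgb1*, *Plod2*). Which neighbours to name was also chosen after their values were seen. Promoter sequences are from RefSeq. Alternatives are given in the closing section. All value columns of the table were used.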

Additional observations from a re-analysis of the deposited data

Results flagged for a closer look

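The response to loss of cysteine and cystine differed from that of MYAZ16.1e, by the test of the difference itself (edgeR interaction contrast with Benjamini-Hochberg adjustment), in 7 cases. For *Fn1* the log2 response was larger by 1.107 in Myc310 (adjusted p = 0.00125), while LM1 exceeded MYAZ16.1e by 2.320 (adjusted p = 6.89e-19) and LM1-LM did by 2.390 (adjusted p = 2.17e-21). For *Thbs1* the difference was -1.410 in Myc310 (adjusted p = 4.61e-05), and LM1-LM differed by 0.620 (adjusted p = 8.28e-04). In LM1-LM it was -0.243 for *Fkbp10* (adjusted p = 0.0142) and -0.944 for *Ptprf* (adjusted p = 5.28e-04). The *Fkbp10* case was lost without the cultures numbered 1 (adjusted p = 0.0637 in edgeR) or 3 (adjusted p = 0.0921), and the *Ptprf* case without those numbered 3 (-0.582, adjusted p = 0.0828). The control cultures, from which responses are measured, were also used to choose the genes. Each rests on 3 cultures per line and medium, and each subtype is 1 line here.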

How the results depend on the processing

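The comparisons were recomputed with RLE and upper-quartile factors, without the filter on low counts, with DESeq2, with a replicate block and without replicate 1, 2 or 3. All 45 libraries entered the model as an alternative for comparisons other than those of subtypes against MYAZ, and the 12 deprived libraries alone for the differences in deprived medium. Counts summed per line and leaving out each line were run for the subtypes against MYAZ. Of the tested values of the 5 genes under the alternatives run for each, 644 kept direction and side of the threshold, 14 passed it newly, 11 lost it and 8 changed sign, and the cause was not tested. These numbers include the ranges between lines of 1 subtype, whose calls for the 5 genes are not given. The changes of sign were all among values that did not pass and came from leaving out cultures. Over those settings the response of *Ptprf* in MYAZ16.1e lay between -0.0770 and 0.0069, that of *Ly75* in Myc310 between -0.7070 and 0.2346, and that of *Fkbp10* in LM1 between -0.0492 and 0.4120. The difference from MYAZ16.1e of the *Ly75* response lay between -0.5680 and 0.3558 for Myc310, between -0.3175 and 0.1865 for LM1, and between -0.1053 and 0.1163 for LM1-LM, and the difference of *Fkbp10* in NDI1 from -0.0359 to 0.0534. In control medium the log2 difference of *Fkbp10* between LM-LM and MYAZ was -0.2127 with all lines and 0.3509 without LM2-LM. With counts summed per line, the genes called against MYAZ numbered 1429 for Myc310, against 7022 with cultures as replicates, 3788 for LM, against 8385, and 4226 for LM-LM, against 8661. Genes called between LM1-LM and LM1 in deprived medium numbered 1235 to 1661 without the cultures of 1 number, against 2266, and those between NDI1 and MYAZ12.3i 898 to 1326, against 2236. Same-numbered cultures of different media did not deviate together (12 pairs, r from -0.057 to 0.052, and 4 closest to their own number), so the numbers were not used as pairs, and a replicate block gave 9661 called genes for the response in LM1-LM, against 9699, and changed no call of the 5 genes. Values of a few reads, as for *Fkbp10* and *Ly75* in Myc310, are limited by depth.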
